A study of Rattus norvegicus with 4 samples.

Results

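The genes described here are a set of endoplasmic reticulum chaperones and folding factors together with Xbp1, 10 genes chosen by symbol: Hspa5, Hsp90b1, Sdf2l1, Manf, Pdia4, Pdia6, Creld2, Dnajb9, Calr and Xbp1. Of the 10, 8 have a named probe on the array, with 10 probes in all. The array measured 8985 named genes, and 18664 probes were kept, named or not. Hsp90b1 and Xbp1 have no named probe here and were not analysed here, so every value below concerns the other 8 genes and none concerns Xbp1. All 10 probes were above background on all 4 arrays, so none of the 8 genes depended on the filter on dim probes.

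Liver RNA came from male rats of the Otsuka Long-Evans Tokushima Fatty strain, which develops obesity and diabetes spontaneously, fed chow freely. The thiamine group was given vitamin B1 in its drinking water, at 0.2% or 2 g per L, starting at 4 weeks of age and lasting 51 weeks. The untreated group drank water without it. All rats were killed at 55 weeks of age after 16 h of fasting. The study kept 8 rats per group and put 2 per group on arrays, each liver on an array of its own with no pooling. No lean strain and no other dose is among these arrays. Rats were caged in pairs, and whether any of the rats on arrays were cage mates is not stated in the labels.

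Proteins that a cell secretes or places in its membranes enter the endoplasmic reticulum as they are made, and there they are folded by chaperones, joined by disulfide bonds and given sugar chains. When unfolded chains accumulate, the sensors IRE1, ATF6 and PERK switch on the unfolded protein response: IRE1 splices the mRNA of Xbp1, ATF6 is cut free from the membrane by proteases, and both resulting factors raise the transcription of chaperone genes, while PERK slows translation and favours the factor ATF4. Hepatocytes secrete most plasma proteins and carry an extensive endoplasmic reticulum.

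The response acts on many chaperone genes through the endoplasmic reticulum stress element (ERSE), a CCAAT box, bound by NF-Y, set a fixed distance from CCACG, bound by ATF6 and XBP1. The promoter windows of the members were read from RefSeq (rat build GRCr8) and searched for matches to this element. Each ran from 250 bases before to 50 bases after the annotated start. Windows were found for 8 of the 10 genes. Manf and Pdia6 are named only. CCAAT followed by 9 bases of any kind and then CCACG, searched on both strands, matched in 5 of the 8 windows. It matched in 22 of 33469 windows of all genes (0.0657%). The 22 include these 5, and the shares were not tested against each other. The matches are given as read on the strand that holds CCAAT, with CCAAT and CCACG in capitals, because their spacing is what defines the element.
Hspa5 element: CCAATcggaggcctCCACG
Hsp90b1 element 1: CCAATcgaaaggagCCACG
Hsp90b1 element 2: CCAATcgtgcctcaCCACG
Creld2 element: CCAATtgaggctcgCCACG
Xbp1 element: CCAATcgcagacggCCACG
Calr element: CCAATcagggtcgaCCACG

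The Hspa5 match lay at chr3:38452973-38452991, on the strand of the gene, 43 to 25 bases before the start. Those of Hsp90b1 lay at chr7:23012451-23012469 and chr7:23012347-23012365, that of Creld2 at chr7:121789239-121789257, that of Xbp1 at chr14:84604558-84604576 and that of Calr at chr19:40213135-40213153. The matches of Creld2 and Calr and the second of Hsp90b1 were on the strand opposite to the gene. No match was found in the windows of Sdf2l1, Pdia4 and Dnajb9. CCAAT and CCACG are each part of the ERSE and are common alone: CCAAT was in 37.5% and CCACG in 31.6% of all windows. A match describes letters in a window and is not a measured binding site. For the ERSE only the exact pattern was searched, so a window without a match is not shown to lack the element.

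The windows of 3 genes are printed whole on the gene's own strand, as the gene with the brightest probe (Hspa5), a gene with the element on the opposite strand (Calr), and the gene with the largest difference between the groups (Sdf2l1). Capitals mark the CCAAT and CCACG of the ERSE in Hspa5 and Calr. In Sdf2l1, where no match to the ERSE was found, they mark every CCAAT and CCACG on either strand. These read ATTGG and CGTGG on the other strand.
Hspa5 chr3:38452766-38453065, plus strand: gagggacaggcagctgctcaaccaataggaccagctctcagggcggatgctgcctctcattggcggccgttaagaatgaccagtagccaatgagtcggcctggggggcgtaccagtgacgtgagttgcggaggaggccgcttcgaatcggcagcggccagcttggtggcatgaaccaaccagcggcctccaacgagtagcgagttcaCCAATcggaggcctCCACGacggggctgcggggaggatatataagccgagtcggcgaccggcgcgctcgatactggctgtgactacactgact
Calr chr19:40213117-40213416, plus strand: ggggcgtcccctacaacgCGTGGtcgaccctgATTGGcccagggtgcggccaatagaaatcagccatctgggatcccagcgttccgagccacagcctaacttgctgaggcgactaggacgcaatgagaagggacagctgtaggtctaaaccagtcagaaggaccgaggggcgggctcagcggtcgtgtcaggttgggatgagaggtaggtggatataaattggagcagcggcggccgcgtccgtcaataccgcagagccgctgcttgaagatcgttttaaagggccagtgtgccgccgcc
Sdf2l1 chr11:97376628-97376927, plus strand: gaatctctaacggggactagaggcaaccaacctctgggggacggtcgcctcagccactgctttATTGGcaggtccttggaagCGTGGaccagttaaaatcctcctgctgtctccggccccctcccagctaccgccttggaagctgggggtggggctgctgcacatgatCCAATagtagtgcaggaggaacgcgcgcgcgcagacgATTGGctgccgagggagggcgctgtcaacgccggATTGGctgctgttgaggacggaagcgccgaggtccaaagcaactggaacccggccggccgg

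**Figure D1:**
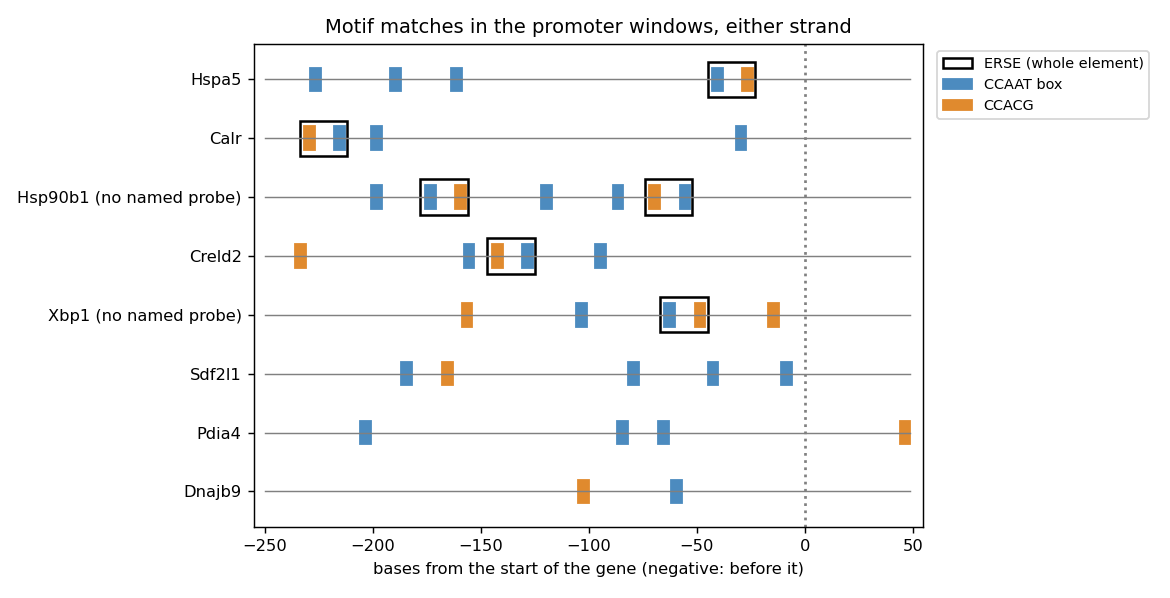
Positions of motif matches in the promoter windows of the members, as distance in bases from the annotated start (blue: CCAAT, orange: CCACG, box: whole ERSE). A match to the ERSE was found in the windows of Hspa5, Hsp90b1, Creld2, Xbp1 and Calr.

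The arrays gave 19075 and 20071 of 33849 gene probes above background for thiamine rats 1 and 2, and 18176 and 18392 for untreated rats 1 and 2. Across the kept probes the arrays correlated between 0.968 and 0.982. No probe of 18664 passed an adjusted p of 0.05 in limma (0% called), and 1260 had an unadjusted p under 0.05. Values are log2 normalised intensities, and a difference is thiamine less untreated on that scale with its moderated SE. Nothing in the labels says that the rats differed in anything but thiamine intake. The p-values rest on the spread between these 4 rats, moderated by limma with the spread over all kept probes. In bulk liver, fewer cells of a type and less RNA per cell cannot be told apart.

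All 8 measured genes were lower in both thiamine livers than in both untreated livers, with a median difference of -0.50 and a range from -0.89 (Sdf2l1) to -0.25 (Dnajb9). Among all 8985 genes, 19.0% were lower without overlap between the groups, 49.4% were lower at all, and 2.14% had a difference at or below the members' median. A difference of at least 0.5 downwards was found for 4 of the 8, against 2.16% of all genes. An unadjusted limma p under 0.05 was found for 5 of the 8, against 3.06% of all genes in this direction and 3.83% in the other, and no member passed after adjustment over all probes. The members had been listed with results of these data known, so these shares describe the list and are not a test of it.

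Hspa5 (probe GE19667) encodes BiP, the main Hsp70 chaperone of the endoplasmic reticulum, which also holds the stress sensors inactive. Its log2 intensity was 12.25 and 12.57 in thiamine rats 1 and 2, against 13.02 and 12.92 in untreated rats 1 and 2. The groups did not overlap, and the gap of 0.34 between them was wider than the distance between the rats of either group. The difference was -0.56 ± 0.19 (SE, n = 2 each; 95% interval -0.98 to -0.14), a ratio of 0.680, with a limma adjusted p of 0.546.

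Dnajb9 (GE19908) encodes ERdj4, a J-domain cochaperone of BiP. It was at 11.06 and 10.89 in thiamine livers, against 11.13 and 11.31 in untreated livers. Its groups were separated by only 0.07, less than the distance between the rats of either group. The difference was -0.25 ± 0.18 (95% interval -0.65 to 0.16; limma adjusted p = 0.863), the smallest of the 8, and -0.15 without untreated rat 2.

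Sdf2l1 (GE13993) encodes a luminal protein that works in a complex with the BiP cochaperone ERdj3. It was at 10.43 and 10.40 in thiamine livers, against 11.04 and 11.57 in untreated livers. Both thiamine rats lay almost on one value, and the untreated rats, though farther apart, were both higher by at least 0.61. The difference was -0.89 ± 0.21 (95% interval -1.35 to -0.43), a ratio of 0.539, with a limma adjusted p of 0.251.

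Manf (GE16767) encodes a small protein of the endoplasmic reticulum that binds BiP and can be secreted. It was at 11.47 and 11.55 in thiamine livers, against 12.59 and 12.01 in untreated livers. The groups did not overlap, but the untreated rats differed from each other by more than the gap between the groups. The difference was -0.79 ± 0.22 (95% interval -1.27 to -0.31), a ratio of 0.578 (limma adjusted p = 0.339), and leaving out untreated rat 1 or 2 gave -0.51 or -1.07.

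Creld2 (GE17370) encodes a stress-induced protein of the endoplasmic reticulum. Its values were 9.37 and 9.45 in thiamine livers, against 10.22 and 9.58 in untreated livers. Untreated rat 1 was well above the other three rats, and untreated rat 2 was above the higher thiamine rat by 0.13. The difference of -0.49 ± 0.22 (95% interval -0.99 to 0.01; limma adjusted p = 0.745) became -0.17 when untreated rat 1 was left out and -0.81 when untreated rat 2 was.

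Pdia4 and Pdia6 encode protein disulfide isomerases, which make and rearrange disulfide bonds in folding chains. Pdia4 (GE21856) was at 11.16 and 11.36 in thiamine livers, against 11.81 and 11.73 in untreated livers, a difference of -0.51 ± 0.18 (95% interval -0.91 to -0.11; ratio 0.701; limma adjusted p = 0.569). The gap between its groups, 0.37, exceeded the distance between the rats of either group. A further Pdia4 probe (GE1269057) was at 10.45 and 10.03 in thiamine livers, against 10.64 and 10.83 in untreated livers, and was flagged as contaminated on the array of untreated rat 1. Both Pdia4 probes gave nearly the same difference, -0.51 and -0.50. On GE1269057, however, the gap between groups was 0.189, less than the distance between the thiamine rats (0.421) or the untreated rats (0.194). The 2 probes also ordered the rats within each group in opposite ways.

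Pdia6 (GE22192) was at 9.35 and 9.54 in thiamine livers, against 9.70 and 9.73 in untreated livers. The groups did not overlap, and the difference of -0.27 ± 0.18 had an interval that includes 0 (95% interval -0.67 to 0.13; limma adjusted p = 0.846). Without thiamine rat 1 it was -0.18.

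Calr encodes calreticulin, a calcium-binding lectin that holds glycoproteins until they are folded. On probe GE1171859 it was at 9.44 and 9.51 in thiamine livers, against 9.71 and 10.17 in untreated livers. The difference was -0.47 ± 0.20 (95% interval -0.92 to -0.02; ratio 0.721; limma adjusted p = 0.703). Leaving out untreated rat 1 gave -0.70, and leaving out untreated rat 2 gave -0.24. A dimmer Calr probe (GE1257792) was at 8.06 and 7.90 in thiamine livers, against 8.33 and 8.91 in untreated livers, a difference of -0.64 ± 0.22. The 2 probes ordered the groups the same way. Across the array, 1999 genes had several kept probes, and in 806 of them the probes disagreed in sign.

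**Figure D2:**
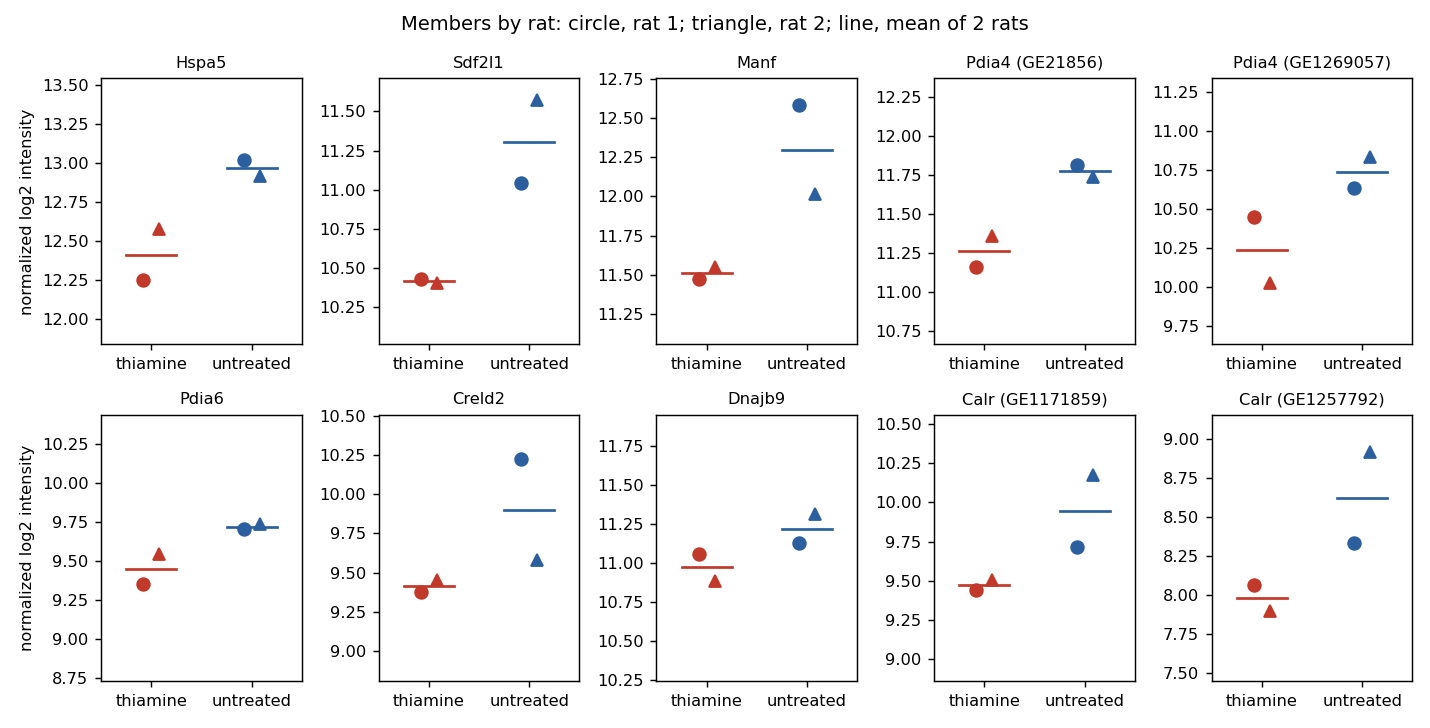
Log2 normalised intensity of the 10 probes of the 8 measured members in each rat, thiamine left of untreated (circle: rat 1, triangle: rat 2, line: mean of 2 rats; each panel has its own axis range). In every panel both thiamine rats lie below both untreated rats.

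The size of the difference varied between members more than their order did. On the brightest probe of Hspa5, Sdf2l1 and Pdia4 (3 of 8) the gap between groups exceeded the distance between rats within either group. In the other 5 genes, and on the dimmer Pdia4 probe, it did not. For Hspa5 the excess was narrow, a gap of 0.341 against 0.326 between the thiamine rats. The share of all genes with such a gap was not computed, so whether 3 of 8 is unusual is not known. The members did not order the rats of a group alike: 4 of 8 were higher in untreated rat 1 than in untreated rat 2, and 2 of 8 were higher in thiamine rat 1 than in thiamine rat 2. Since no member's groups overlapped, all 8 genes were by definition lower in the thiamine rat in each of the 4 pairings. The medians were -0.63 and -0.56 for thiamine rat 1 against untreated rats 1 and 2, and -0.45 and -0.40 for thiamine rat 2. Within a group the same median was -0.08 for the thiamine rats and 0.02 for the untreated rats.

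**Figure D3:**
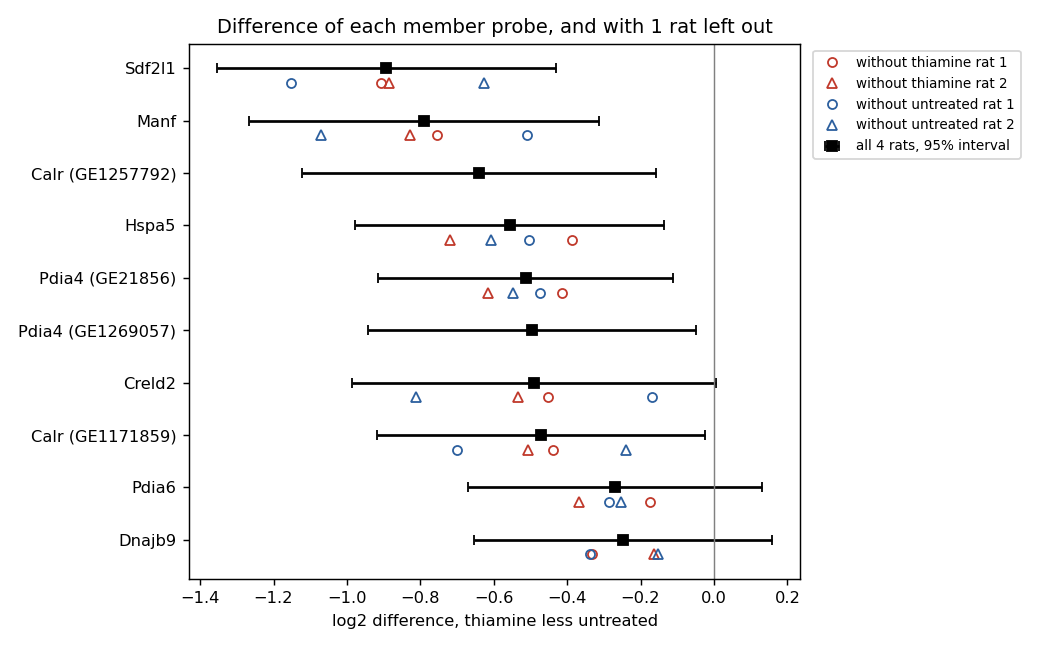
Log2 difference, thiamine less untreated, of each of the 10 member probes (squares) with its 95% interval over all 4 rats, and of the 8 probes that stand for a gene with 1 rat left out (open marks). All squares and open marks lie below 0, while the intervals of Creld2, Pdia6 and Dnajb9 include 0; the genes run from -0.89 for Sdf2l1 to -0.25 for Dnajb9 with all rats.

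Before normalization fewer members were separated. As background-subtracted intensity, Hspa5 was at 5280 and 6211 in thiamine livers, against 7504 and 7392 in untreated livers, and Sdf2l1 was at 1426 and 1379 in thiamine livers, against 1898 and 2876 in untreated livers. On that scale 4 of 8 genes (Hspa5, Sdf2l1, Manf and Pdia4) were lower without overlap, against 5.23% of all genes, while Pdia6, Creld2, Dnajb9 and the brighter Calr probe overlapped. The dimmer Calr probe did not overlap, at 216 and 196 in thiamine livers, against 242 and 390 in untreated livers. Without normalization between arrays the median of all genes was 0.19 and that of the members -0.32, so the members' median lay 0.51 below that of all genes, as they did after quantile normalization. The separation of Pdia6, Creld2 and Dnajb9 is seen on the normalised scale only.

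The stress sensors and the proteins that activate them lay closer to 0 than the members. Of 7 listed, 5 were measured, 4 lower and 1 higher, none past the adjusted threshold. Their median was -0.11, and it was 0.07 without untreated rat 1 and -0.27 without thiamine rat 1. Atf6, the membrane-bound factor, was at 10.61 and 10.21 in thiamine livers, against 10.40 and 10.76 in untreated livers, with overlapping groups and a difference of -0.17 ± 0.21. Eif2ak3, which encodes PERK, differed by -0.11 ± 0.20, Mbtps1, the protease that makes the first cut in ATF6, by -0.11 ± 0.18 and Atf6b by -0.18 ± 0.22. Each of these 4 was above 0 when the arrays were not normalized to each other, with the median of all genes then at 0.19. Creb3l3, a liver factor released in the same way as ATF6, differed by 0.09 ± 0.18. Ern1, which encodes IRE1, has no named probe here and Mbtps2 was not above background.

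Among 21 measured of 26 other chaperones and disulfide enzymes of the endoplasmic reticulum, 12 had a negative and 9 a positive difference, the median was -0.20, and none passed the adjusted threshold. Without overlap, 11 were lower and 2 higher, against 19.0% and 18.5% of all genes. The list median was between -0.25 (without untreated rat 1) and -0.16 (without thiamine rat 2) with 1 rat left out. It was -0.15 over the 20 genes above background on all 4 arrays. Without normalization between arrays it was -0.010, with 11 lower and 10 higher, when the median of all genes was 0.19. Dnajb11 encodes ERdj3, the partner of SDF2L1, and was at 9.90 and 9.66 in thiamine livers, against 10.33 and 10.52 in untreated livers (difference -0.65 ± 0.19, limma adjusted p = 0.388). Fkbp11, a prolyl isomerase of the compartment, differed by -0.67 ± 0.22 (-0.40 without untreated rat 2), and Ppib, cyclophilin B, by -0.50 ± 0.18.

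Of 18 measured genes of endoplasmic reticulum associated degradation 12 were lower, against 49.4% of all genes. Their median was -0.12, and -0.034 with 10 of 18 lower without untreated rat 1. Derl3, a component of the channel through which misfolded proteins leave, was at 8.31 and 8.12 in thiamine livers, against 9.20 and 8.45 in untreated livers (difference -0.61 ± 0.24). Leaving out untreated rat 1 gave -0.24, and leaving out untreated rat 2 gave -0.98. Of 20 translocon, signal peptidase and signal recognition genes 18 were lower. Their median was -0.10, and between -0.22 (without untreated rat 2) and -0.11 (without thiamine rat 2) with 1 rat left out, when between 13 and 17 genes were lower. Leaving out thiamine rat 1 or untreated rat 1 gave -0.19 or -0.17. Median scaling left 15 of 20 lower. Sec11c, a signal peptidase subunit, was at -0.69 ± 0.20 and Sec61a1, the channel, at -0.49 ± 0.18.

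Of 21 vesicle coat genes 17 were lower, with a median of -0.08. Without untreated rat 2 only 11 were lower (median -0.03), and leaving out thiamine rat 1 or untreated rat 1 gave medians of -0.05 or -0.18. The cargo receptors Lman1 and Surf4 were at -0.74 ± 0.19 and -0.60 ± 0.18. Lman1 was at 11.15 and 10.82 in thiamine livers, against 11.71 and 11.74 in untreated livers, and Surf4 at 11.16 and 11.08 in thiamine livers, against 11.71 and 11.73 in untreated livers. Neither gene's groups overlapped. In the 11 measured oligosaccharyltransferase and glycan trimming genes 6 were lower and 5 higher (median -0.04). Leaving out thiamine rat 1 or 2 gave -0.14 or -0.0073, and leaving out untreated rat 1 or 2 gave -0.12 or 0.05. Mogs, a glucosidase, was at -0.51 ± 0.20, and at -0.30 without untreated rat 1. Alg2, a mannosyltransferase, was at 0.51 ± 0.23, and leaving out thiamine rat 2 or untreated rat 2 gave 0.26 or 0.28. In untreated rat 2 Alg2 was at 6.91, below that array's lowest above-background signal of 7.24. It was thus kept through the thiamine group, where it was higher. With only probes above background on all 4 arrays, 10 genes of this list remained, 4 higher and 6 lower (median -0.10). No gene on these lists passed the adjusted threshold. Without normalization between arrays the medians of the degradation, translocon, coat and glycan lists were above 0, between 0.06 and 0.13, and below the median of all genes of 0.19. Relative to that median, each list median kept its sign.

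The medians of the ATF4 branch and of the heat shock proteins outside the endoplasmic reticulum were above 0 with all 4 rats. Of 14 ATF4 branch genes 8 were higher and 6 lower (median 0.08, -0.08 without untreated rat 1 and -0.013 without thiamine rat 1). Ddit3, which encodes the stress factor CHOP, was at 11.33 and 11.16 in thiamine livers, against 10.70 and 10.96 in untreated livers (difference 0.42 ± 0.19), and Atf5 differed by -0.53 ± 0.23 (-0.19 without untreated rat 2 and -0.86 without untreated rat 1). Of 13 cytosolic and mitochondrial heat shock proteins 8 were higher (median 0.07, and -0.10 without thiamine rat 2). Hspb1, a small heat shock protein of the cytosol, was at 11.82 and 12.56 in thiamine livers, against 11.34 and 11.03 in untreated livers, a difference of 1.0 ± 0.25 with a limma adjusted p of 0.272. Without thiamine rat 2 the difference was 0.63.

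**Figure D4:**
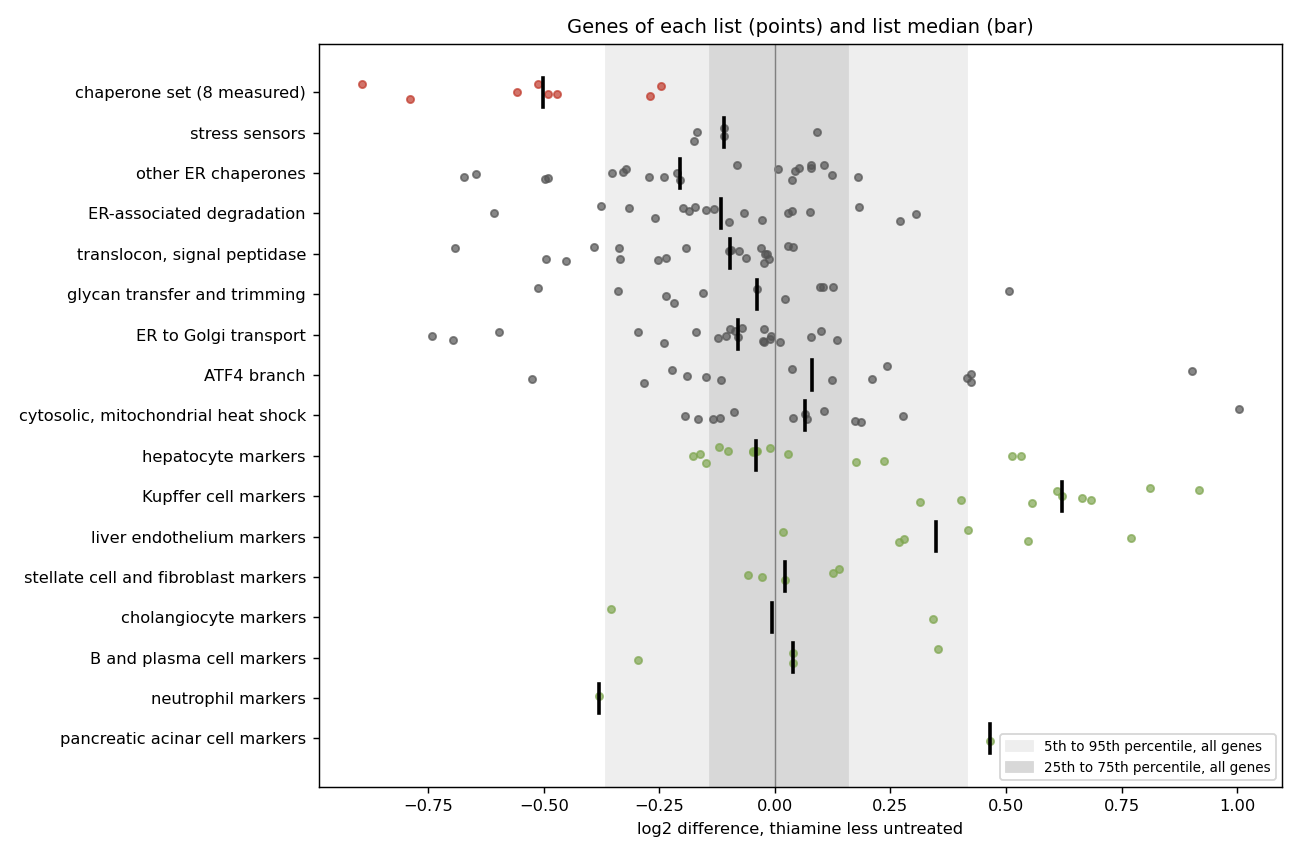
Log2 difference, thiamine less untreated, of each measured gene by list, with list medians. The members' median of -0.50 is below that of every other list shown.

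Genes with a match to the ERSE offer a set chosen by sequence and not by the values. Of 21 such genes 14 were measured. Of the 14, 9 were lower, 7 of them without overlap, with a median of -0.12. The members were listed with results of these data known. Values given apart for members and for other genes therefore no longer rest on sequence alone. Among the 14, 11 are not members. Of the 11, 6 were lower, 4 of them without overlap, and 2 were higher without overlap, with a median of -0.08. Among all genes 49.4% were lower, and 19.0% were lower and 18.5% higher without overlap. Dnajc3, a BiP cochaperone, differed by 0.04 ± 0.22 and Canx, the membrane lectin calnexin, by 0.08 ± 0.24, both with overlapping groups. Derl3 is also among the 11. For the 3 measured members with a match the median was -0.49. The shorter ERSE-II, ATTGG followed by 1 base of any kind and then CCACG, was found in 17 windows (0.0508%). It belonged to 8 measured genes, 4 of them lower, with a median of 0.02. Among them were Dnajb11 at -0.65 ± 0.19 and Herpud1 at 0.30 ± 0.22. Cdc27 and Cdc45, higher by 0.29 ± 0.18 and 0.49 ± 0.21, lay below the lowest above-background signal of both untreated arrays. They were kept through the thiamine group, so this median rests partly on genes near the floor.

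Markers of liver cell types were read beside these values. Of 15 measured hepatocyte markers, 8 were flagged as saturated on at least 1 array, Alb and Apoc3 among them, and these 8 were left out of the sum. The other 7 summed to 53459 and 65493 in thiamine livers, against 58065 and 51542 in untreated livers, with overlapping groups. Counted by direction, 10 of the 15 were lower and 5 higher (median -0.04), the saturated ones included. The sum therefore does not give the direction of most hepatocyte markers. All 9 measured Kupffer cell markers were higher, with a summed level of 29062 and 20203 in thiamine livers, against 19734 and 12801 in untreated livers (151% of the untreated mean). With 1 rat left out this share was between 124% and 192%. All 6 measured endothelial markers were higher, at 6013 and 5348 in thiamine livers, against 4262 and 4082 in untreated livers (136%). Their part in the members' values was not tested.

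Plasma cells are rich in endoplasmic reticulum. Levels of 4 measured B and plasma cell markers summed to 2464 and 2419 in thiamine livers, against 2595 and 2103 in untreated livers (104%). The groups overlapped. For stellate cells (5 measured) the sum was 104% of the untreated level, with overlapping groups. For cholangiocytes (2 measured) the sums were 732 and 850 in thiamine livers, against 1159 and 685 in untreated livers. These overlapped, and the share of 85.8% was 116% without untreated rat 1. For neutrophils S100a9 alone was measured, at 78.5%. Of 10 pancreatic acinar markers Cela1 alone was measured, with overlapping groups, while Prss1, Cpa1, Pnlip and 4 others were not above background.

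The genes most like the members over the 4 arrays were taken as those with the smallest root mean square distance from the members' mean centred log2 profile of -0.31 and -0.22 in thiamine rats and 0.28 and 0.25 in untreated rats. These were Mbl1, a mannose-binding lectin secreted by hepatocytes (distance 0.026), Rtn4, a protein that shapes endoplasmic reticulum tubules (0.030), Daam1 (0.031), C10h17orf58 (0.034) and Chrnb4 (0.040). Mbl1 was at 12.09 and 12.14 in thiamine livers, against 12.63 and 12.58 in untreated livers. Their likeness rests on 4 arrays and was the reason they were chosen.

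**Figure D5:**
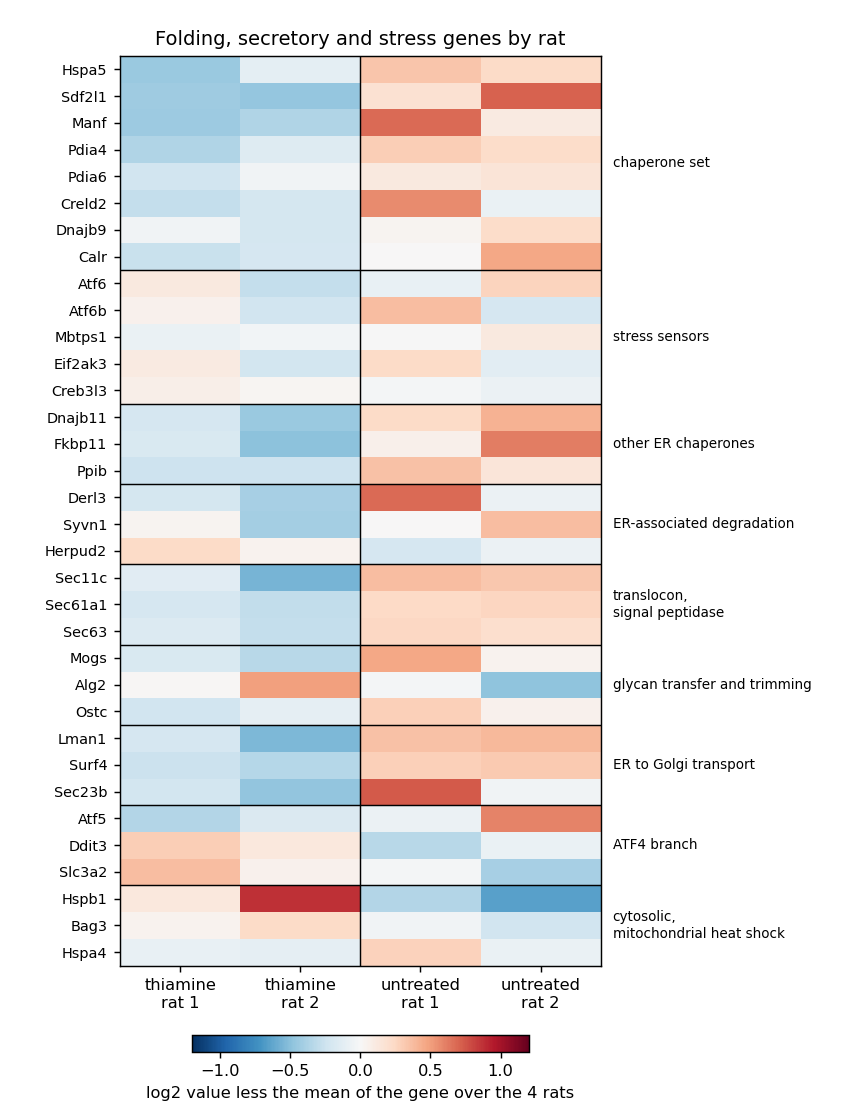
Log2 values of the members and of the named genes of the other lists in each rat, less the gene's mean over the 4 rats, thiamine rats left of untreated rats. Over the members, thiamine rats average -0.31 and -0.22, and untreated rats 0.28 and 0.25.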

How the data were processed

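Data from 4 1-colour CodeLink rat arrays, 1 per liver, were grouped by the labels. Per the file headers, the deposited scanner reports give intensity on a linear scale (spot mean and local background) with a quality flag. The authors' deposited value table, also intensity, was used as an alternative, and its making is not given in the sources.

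Background was corrected by normexp (offset 50) over 35129 features. After 1280 control features were dropped, the log2 values of 33849 gene probes were quantile normalized. Probes flagged near background or masked on an array or more of each group were dropped, leaving 18664, while contaminated and saturated spots stayed in. Probe symbols are those of the platform annotation, brought up to date with RefSeq (GRCr8), and 16564 probes carry none here. A gene is its brightest kept probe. limma 3.58.1 (R 4.3.3) compared the groups, two-sided, with Benjamini-Hochberg adjustment over every kept probe and a threshold of 0.05. It had 2 residual degrees of freedom (10.8 after moderation) and a median SE of 0.19, and the number of arrays limits the precision. The fit was tested on simulated data with planted differences larger than those of the members, so that test does not cover differences of their size. Genes named are all measured members and sensors, up to 3 of each other list by smallest unadjusted p, and the 5 most like the members. Dnajc3, Canx, Herpud1, Cdc27 and Cdc45 were named after their values were seen. The members and lists were chosen with earlier results of these data known. Alternatives covered background correction, scaling, filters, flagged spots, the deposited table, the replicate block and leaving out each rat.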

Additional observations from a re-analysis of the deposited data

How the results depend on the processing

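All 106 values of the members under alternative settings were below 0, as in the fit reported. Many of these signs were fixed in advance. The filter settings and the replicate block repeat the fitted difference of every member. Where groups do not overlap, leaving out 1 rat can hardly change the sign. The count is therefore no independent support. Of 508 values of the 39 genes followed, 496 kept their direction and their side of the threshold under the 13 alternative fits, 10 were reversed and 2 passed the threshold. The count of probes past the adjusted limma threshold was 0 with all rats and 126 with the replicate number as a block, and between 1 and 50 when 1 rat was left out (50 without untreated rat 1). It was 0 under the other settings run: background subtraction, an offset of 16, median scaling, no filter, probes above background on all arrays, flagged spots missing, the deposited table and no normalization between arrays. With the replicate block, the limma adjusted p was 0.0441 for Sdf2l1 and 0.0271 for Hspb1. For Sdf2l1 it ranged from 0.0441 to 0.947 over all alternatives. The labels do not say that the numbers pair the rats, and the deviations of same-numbered rats correlated at -0.074 over the kept probes, so the block result rests on numbers alone. The members' median of -0.50 ranged from -0.58 to -0.43 with 1 rat left out and was -0.32 without normalization between arrays, a setting added after the data were seen, in which the median of all genes was 0.19. Dnajb9 and Pdia6 were at -0.06 and -0.08 there. Genes near 0 were reversed: with 1 rat left out Atf6 ranged from -0.36 to 0.029, Atf6b from -0.46 to 0.11 and Eif2ak3 from -0.29 to 0.070, and without normalization Atf6 was at 0.025, Atf6b at 0.021, Eif2ak3 at 0.076, Mbtps1 at 0.078 and Hspa4 at 0.0062. The cause was not tested. A fit with the slide as a block was not run, since 0 slides held more than 1 array. With a rat left out, 1 group holds 1 rat, which is assumed to vary like the others. Leaving saturated probes out of the hepatocyte marker sum was chosen after the data were seen: the thiamine sum was 109% of the untreated sum without them and 99.4% with them.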
